A study of Mus musculus with 25 samples.

Results

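The genes described here are named for proteins of the mitochondrial ribosome. The source was 3 tables of RNA from sorted nuclei of hippocampal neurons. Every gene whose symbol begins with Mrpl or Mrps followed by a digit was taken, by name alone. This gave 77 genes among the 24411 genes of each table, 48 with a large-subunit symbol (Mrpl) and 29 with a small-subunit symbol (Mrps). The tables come from a study of ferritin light chain 1 (Ftl1), an iron-storage protein, in neurons of male C57BL/6 mice. The table for age compared neuronal nuclei of wild-type mice at 3 months (young, 3 libraries) and 18 months (aged, 2 libraries). The table for overexpression compared young mice (3 months) given a lentivirus carrying Ftl1 behind the neuronal synapsin-1 promoter (Ftl1 OE, 7 libraries) with mice given a virus for green fluorescent protein behind the same promoter (control, 5 libraries). The table for knockdown compared aged mice (18 months) given a virus for a short hairpin RNA against Ftl1 (Ftl1 KD, 4 libraries) or against luciferase (control, 4 libraries), and these hairpins were not limited to neurons by their promoter. Every animal of the overexpression and knockdown tables therefore carried a virus, and neuronal nuclei were sorted by the neuronal nuclear antigen NeuN in each experiment.

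Mitochondrial ribosomes translate the few proteins encoded by mitochondrial DNA, all of them subunits of the respiratory chain and of ATP synthase. Their RNA is made inside the organelle, whereas all of their proteins are encoded in the nucleus, made in the cytosol and imported. Many of the proteins have a counterpart in the bacterial ribosome, and the others were acquired by mitochondria and lie mostly on the outside of both subunits. By these roles, 30 members were large-subunit proteins with a bacterial counterpart and 20 were large-subunit proteins specific to mitochondria. Another 16 were counted as small-subunit proteins with a bacterial counterpart and 11 as small-subunit proteins specific to mitochondria, with Mrps36 placed among the latter by its symbol. Mrps18a and Mrps30, which sit in the large subunit in spite of their names, were counted there. Neurons depend strongly on respiration. All values below are of RNA from sorted nuclei, so they describe transcripts and not the protein or the ribosome. Whether RNA from outside the nuclei or from other cells came along was not tested.

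The 77 genes lie on 17 chromosomes, each at a single locus. Promoter windows (250 bases before to 50 after the start of the gene, RefSeq, build GRCm38.p6) were at hand for 68 members. They were searched on both strands for cores of the sites of NRF1, the ETS family and YY1, factors known to act on nuclear genes for mitochondrial proteins. CCGGAAG (ETS core) was found in 25 of the 68 members (36.8%), against 9.93% of all 27025 genes with a window and 17.8% of the 11114 with a window that were tested for age or overexpression. GCGCATGC (NRF1 core) was found in 8 members (11.8%), against 3.05% of all genes and 5.61% of those tested. AAGATGGC (YY1 core) was found in 12 members (17.6%), against 3.19% and 4.82%. At least 1 of the 3 cores was present in 37 members (54.4%), against 14.9% of all genes and 25.6% of those tested. A match is a run of letters and was not shown to be bound here. Below, 30-base stretches that lie before the annotated start of the member show how such a core sits in front of members, with the core in capitals and the letters read 5′ to 3′ on the strand of the gene. Mrpl27 and Mrpl34 are described with their values further on. Mrpl22 and Mrps11 were picked after their values were seen, as examples of the NRF1 core and of the YY1 core read on the other strand. The stretch of Mrps11 lies in an exon of Mrpl46, another member, and that of Mrpl27 in an untranslated exon region of Eme1, both on the − strand, while the stretches of Mrpl34 and Mrpl22 lie in no annotated gene (GENCODE M21).
Mrpl27, ETS core, chr11:94653725-94653754, + strand: gtccgcaagacCCGGAAGtagatctatccc
Mrpl34, ETS core, chr8:71464878-71464907, + strand: aactacagctcCCGGAAGgccccgcggcaa
Mrpl22, NRF1 core, chr11:58171620-58171649, + strand: ggcctcggactGCGCATGCgtatagtcagc
Mrps11, YY1 core, chr7:78783013-78783042, + strand: ctacgggcgccGCCATCTTtctgtcttccc

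Values are read counts per gene that the authors divided by a size factor for each library (normalized counts). Reads per library numbered 7969282 to 9537872 for age, 9943996 to 17034325 for overexpression and 48902 to 358560 for knockdown, where Rn45s, the precursor of cytosolic ribosomal RNA, took 30.3% to 55.3% of the reads. Ftl1 itself did not follow 2 of the labels. Its normalized count was 4580 to 28310 in OE controls (median 7415) and 4737 to 7663 where Ftl1 OE was the label (median 5171). These groups overlapped, and the 28310 was that of control library 9905. In KD controls it was 24.2 to 56.2, against 106 to 140 where Ftl1 KD was the label, so these groups went against the label without overlap. By western blot of hippocampus, the paper reports more FTL1 protein with Ftl1 OE and less with Ftl1 KD. Its own list of genes lower with Ftl1 OE and higher with Ftl1 KD and Ftl1 knockout also holds Ftl1 itself. Directions below are therefore those of the labels. Summed counts of 7 neuron markers, among them Rbfox3 and Snap25, were 27447 to 36603 in the age table, 42115 to 68714 in the overexpression table and 139 to 205 in the knockdown table. In the age table, sums of 6 oligodendrocyte markers were 2914 to 6565 in young and 3087 to 4286 in aged libraries, sums of 6 astrocyte markers were 974 to 1919 and 754 to 1039, and 2 to 4 of 4 endothelial markers had no read in each library. All differences were tested with limma on log2(normalized count + 1) over every gene with a mean of at least 10 in its table, adjusted after Benjamini-Hochberg over those genes. An adjusted p of at most 0.05 was required, and for age also a log2 fold change of 0.5 or more in size. The sample records do not say that each library came from a separate animal, so these p-values measure the spread between libraries.

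All 77 members had at least 1 read in every library of the age and overexpression tables. Set per kilobase of transcript, the mean normalized count of the members in young libraries ran from 20.2 for Mrpl47 to 1519 for Mrpl41, with a median of 166. Mrpl41, a large-subunit protein specific to mitochondria, stood first at 1519 ± 198 per kilobase (SD, n = 3) and did not overlap the next member. Mrpl20, a large-subunit protein with a bacterial counterpart, followed at 645 ± 16.3, Mrpl28, another of these, at 630.4 ± 136, and Mrps17, of the small subunit, at 579.6 ± 127 (SD, n = 3 for each). The values of these 3 members did not differ beyond their spread. The same 3 large-subunit genes held the first 3 places in OE controls, where Mrpl20 reached 4231 ± 1737 per kilobase, Mrpl41 3801 ± 1611 and Mrpl28 3583 ± 2139 (SD, n = 5). Mrps17 was 28th there, at 1092 ± 139 per kilobase. In KD controls Mrpl41 again stood first, at 26.7 ± 6.59 per kilobase (SD, n = 4). Across the 77 genes, Spearman's rho between the levels per kilobase in young libraries and those in OE controls was 0.80, and between young libraries and KD controls 0.72. Genes are not independent replicates, and each table was normalized on its own.

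Whether the transcripts of mitochondrial ribosomal proteins differ with age was asked of 3 young and 2 aged libraries. The summed normalized count of the 77 members was 20671, 24081 and 23229 in young libraries 1, 2 and 3 and 22917 and 24718 in aged libraries 2 and 3, so the groups overlapped. In libraries made from many nuclei, fewer nuclei of a cell type and less RNA per nucleus cannot be told apart. Of the members, 50 had a higher and 27 a lower fitted mean in aged libraries, with a median log2 fold change of 0.11 beside −0.03 over the 13712 genes tested. No member passed the threshold, and neither did any other gene by limma (0%). At an unadjusted p of at most 0.05, 1 member was higher, beside 2.9% of all genes tested, and 0 were lower, beside 5.04%. The groups did not overlap for 11 members that were higher with age (12.2% of all genes) and 8 that were lower (12.5%). Without aged library 3 the median of the members turned to −0.05, and 40 of the 77 were then below 0. Leaving out any other library gave a median of 0.05 to 0.18. By edgeR on the recovered reads no gene passed either, and by DESeq2 138 genes passed, none of them a member.

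**Figure D1:**
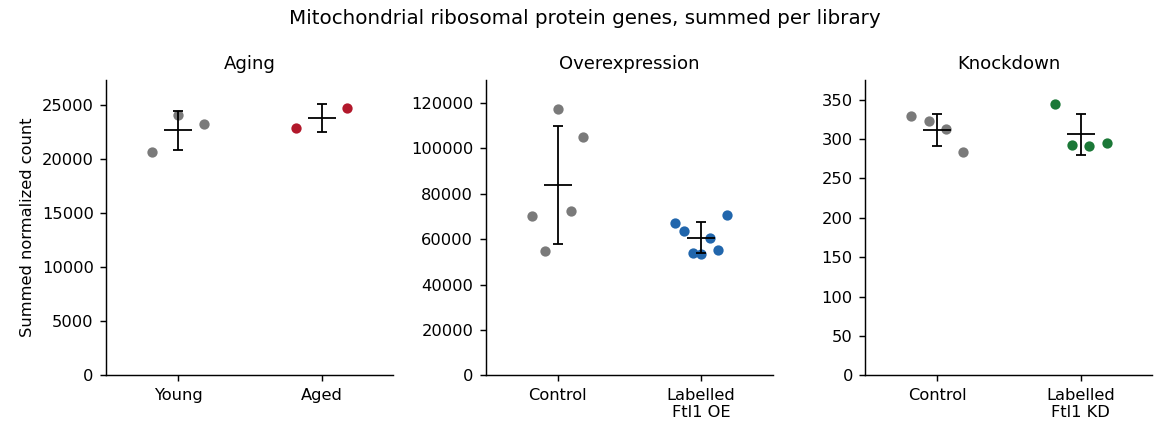
Summed normalized count of the 77 mitochondrial ribosomal protein genes in each library (points), with the mean and SD of each group (bars), in the 3 separately normalized tables. For overexpression, 2 controls lie at 117329 and 104912, above every other library, while the groups overlap in all 3 panels.

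The member with the smallest p for age was Mrpl23, a large-subunit protein with a bacterial counterpart that lies beside the exit of the ribosomal tunnel (chr7:142532686-142540747, + strand). It had normalized counts of 133, 123 and 166 in young libraries and 248 and 344 in aged libraries. Both aged libraries were above all young ones, at 2.11 times the young mean, with a log2 fold change of 1.06 ± 0.45 (SE) and an adjusted p of 0.612 by limma. An exact permutation test of 3 against 2 libraries cannot give a two-sided p under 0.1, and it gave 0.1 for Mrpl23.

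Mrpl12, which forms the stalk that recruits translation factors, had 351, 531 and 423 in young and 635 and 723 in aged libraries, a log2 fold change of 0.66 ± 0.33 (SE). Mrpl44, a mitochondria-specific protein with a ribonuclease III-like fold, had 146, 233 and 177 against 409 and 259, a difference of 0.83 ± 0.43. Mrpl21 had 87.1, 66.8 and 116 against 208 and 157, a difference of 1.03 ± 0.55. In each of these large-subunit genes the aged libraries lay above the young ones, while the adjusted p was 0.647 to 0.649 by limma. Mrpl28 had 534, 814 and 632 against 849 and 1113, a difference of 0.58 ± 0.31, with the same adjusted p of 0.649 and again no overlap. Without aged library 2 the difference of Mrpl44 was 0.50, and without aged library 3 that of Mrpl28 was 0.38. Exons of Mrpl12 and Mrpl21 share bases with genes on the other strand (Gm16755 and Ighmbp2), and whether reads were counted by strand is not given in the sources used here.

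In the other direction, Mrps22, a small-subunit protein specific to mitochondria, had 81.9, 135 and 130.5 in young libraries and 36.6 and 57.0 in aged libraries. This was a log2 fold change of −1.29 ± 0.64 (SE) at an adjusted p of 0.646 by limma, with no overlap of the groups. Mrps25, also specific to mitochondria, had 698, 728 and 903 against 365 and 653, a difference of −0.66 ± 0.34. Mrps5, near the messenger RNA entry of the small subunit, had 227, 230.1 and 204 against 161 and 111, a difference of −0.71 ± 0.45. Aged libraries were below young ones in both genes, with adjusted p-values of 0.648 and 0.689 by limma. Mrpl1, of the mobile stalk where transfer RNA leaves, had 195, 205 and 289 against 192 and 95.5, a difference of −0.73 ± 0.48, and Mrpl11, of the base of the factor-binding stalk, had 241, 189.8 and 211 against 164 and 128, a difference of −0.55 ± 0.44. Their adjusted p-values were 0.711 and 0.761 by limma, and the higher aged value of Mrpl1 was just below the lowest young one. Without aged library 2 the difference of Mrps25 was −0.24, and without aged library 3 those of Mrpl1 and Mrps5 were −0.24 and −0.45. Of the 4 members with the highest levels per kilobase, Mrpl41 had the smallest difference, 0.03 ± 0.28 on the log2 scale, with 1066 to 1353 in young and 1025 and 1391 in aged libraries. Mrpl20 differed by 0.16 ± 0.37 and Mrps17 by −0.41 ± 0.34, with overlapping groups.

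The median log2 fold change with age was 0.27 for small-subunit members with a bacterial counterpart and 0.11 for those specific to mitochondria. It was 0.10 and 0.05 for the same 2 classes of the large subunit. Without aged library 2 the medians of these classes, in the order given, were −0.12, 0.21, 0.31 and 0.10. Without aged library 3 they were 0.37, −0.16, −0.07 and −0.02. No test was made of the differences between these classes. Other genes of mitochondrial translation were listed with the members. They covered ribosomal proteins under other names, translation factors, mitochondrial transfer RNA synthetases and assembly factors. None of the 55 such genes tested passed the threshold by limma, beside 0% of all genes tested, and their median was 0.03. At an unadjusted p of at most 0.05, 2 were higher and 3 lower, shares near the 2.9% and 5.04% of all genes tested. These and the listed genes of mitochondrial transcription that reached that level are given with their means. Lars2, the mitochondrial leucyl-tRNA synthetase, averaged 1151 ± 74.0 in young and 2702 ± 159.8 in aged libraries (SD, n = 3 and 2), a log2 fold change of 1.23 ± 0.26 (SE, adjusted p = 0.354 by limma). The paper, by its own DESeq2 fit, lists Lars2 among the genes increased with age. Mtif3, an initiation factor, averaged 399 ± 69.1 and 672 ± 36.7. Ptcd3, a small-subunit protein with RNA-binding repeats that carries no Mrps symbol, averaged 1148 ± 4.48 and 562 ± 51.7, a log2 fold change of −1.03 ± 0.28 (SE, adjusted p = 0.441 by limma). Fastkd2 and Mterf3, both needed for assembly of the large subunit, averaged 282 ± 35.3 against 133 ± 40.3 and 269 ± 43.4 against 133 ± 71.9. Lrpprc, which stabilises mitochondrial messenger RNA, averaged 1590 ± 253 against 665 ± 71.4, a log2 fold change of −1.25 ± 0.28 (SE, adjusted p = 0.397 by limma).

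In the libraries labelled Ftl1 OE, most members had lower fitted means than in controls, while calls of single members depended on the method. A log2 fold change below 0 was found for 69 of the 77 members (89.6%), beside 42.6% of the 14099 genes tested. The median was −0.37, beside 0.10 over all genes. At an unadjusted p of at most 0.05, 24 members were lower (31.2%), beside 3.66% of all genes, and 1 was higher (Mrpl3), beside 3.6%. No member passed the threshold by limma, and no gene of the table did (0%). The groups did not overlap for 2 members, Mrpl33 and Mrps15, both lower in the libraries labelled Ftl1 OE, beside 0.411% of all genes in that direction. In the other direction the groups did not overlap for 0 members, beside 0.17% of all genes. edgeR on the recovered reads passed no member and had 26 lower at an unadjusted p of at most 0.05. DESeq2 on the same reads had 31 lower at that level and passed 3, Mrpl33 (adjusted p = 0.0420), Mrpl54 (0.0446) and Mrpl27 (0.0482), among 101 genes. Over all alternatives run, the adjusted p of each of these 3 reached 0.954 at its highest. The paper's own list of genes decreased with Ftl1 OE includes Mrpl27 and Mrpl33.

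Within the control group the members were unevenly distributed. Their summed normalized count was 69959 in control library 9901, 54902 in 9904, 117329 in 9905, 72245 in 9925 and 104912 in 9926. In the libraries labelled Ftl1 OE the lowest was 53460, the median 60508 and the highest 70777. Control libraries 9905 and 9926 were above all others, and the remaining controls lay on both sides of the highest value labelled Ftl1 OE. As a share of the reads outside Rn45s, the members took 71.1 and 73.1 per 10000 reads in 9905 and 9926, 45.7 to 58.0 in the remaining controls and 44.2 to 52.6 in the libraries labelled Ftl1 OE. Libraries 9905 and 9926 also had the fewest genes with a read among the controls, 12281 and 13495 against 13924 to 15188. In the libraries labelled Ftl1 OE, the member sums were 67161 in 9895, with 13603 genes, and 60508 in 9918, with 13455. The part of the number of genes detected in these sums was not tested. Without control libraries 9905 and 9926, 60 of the 77 members were below 0, the median was −0.18 beside −0.05 over all genes, and an unadjusted p of at most 0.05 was reached by 4 lower members, beside 1.99% of all genes. Among only the 7 libraries with at least 15000 genes detected (2 control, 5 labelled Ftl1 OE), 69 members were below 0, the median was −0.28 beside −0.01 over all genes, and 8 were lower at that level, beside 2.12% of all genes. Leaving out 9905 alone or 9926 alone left 11 members lower at an unadjusted p of at most 0.05 (2.13% and 2.48% of all genes), and leaving out 9904 gave 39 (6.99%). Leaving out Ftl1 OE library 9914, 9915 or 9923 gave 14, 15 or 12 (2.86%, 2.75% and 2.7% of all genes). Centring every library on its median gene gave a median of −0.47 for the members, with 70 of 77 below 0.

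Markers of other cells and of nuclear RNA also differed between these libraries. The summed count of 6 microglia markers was 1689 to 4684 in controls, against 729 to 2010 for the label Ftl1 OE. Controls 9926 (4684) and 9905 (3264.5), which also had the highest member sums, had the highest microglia sums. Of the 6 markers 1 had a log2 fold change above 0, and an unadjusted p of at most 0.05 was reached by 4, all lower. All 5 nuclear-retained RNAs listed, such as Malat1, had a log2 fold change above 0 with a median of 0.40, and 0 of them reached that level. Their lowest sums among the controls were 61422 in 9905 and 87128.5 in 9926, against 78014 to 332657 for the label Ftl1 OE. Sums of 6 oligodendrocyte markers, 22584 to 47563 against 26428 to 43795, and of 6 astrocyte markers, 4771 to 18851 against 5849 to 28641, overlapped. The part of these differences in the lower counts of the members was not tested.

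**Figure D2:**
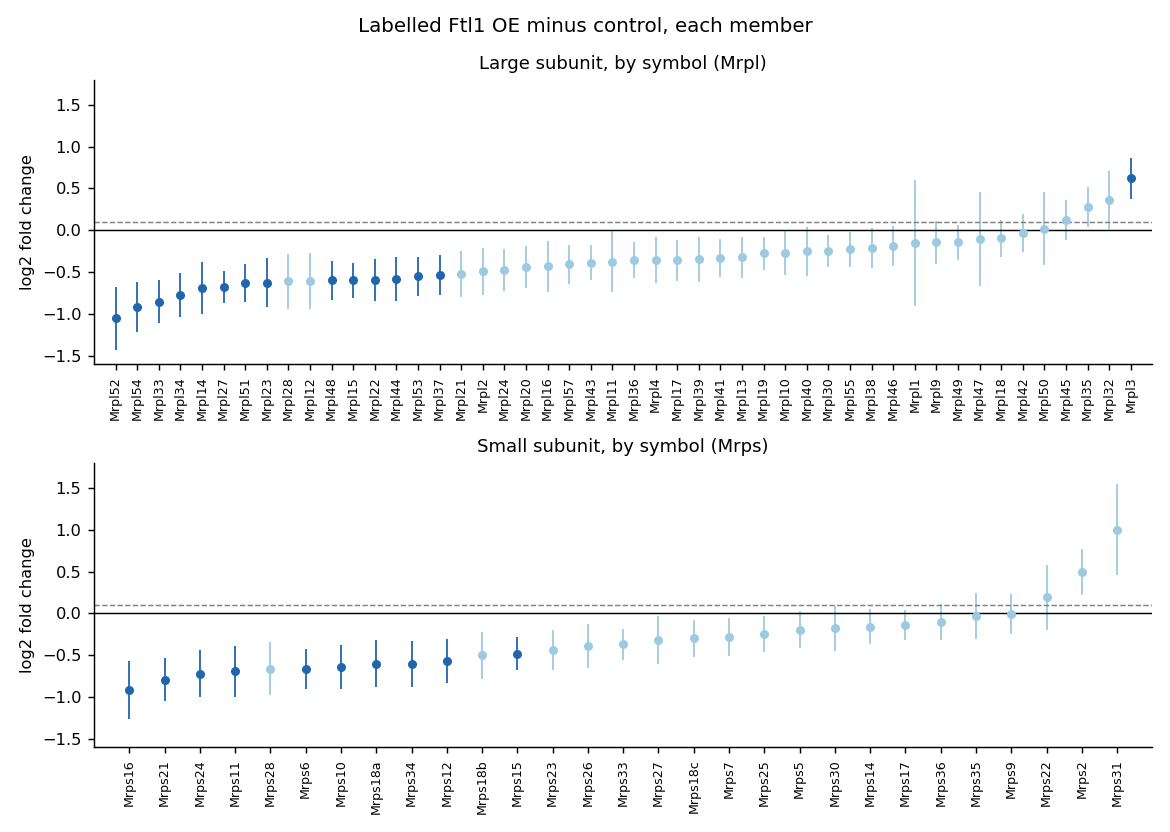
Log2 fold change (libraries labelled Ftl1 OE minus control) of each of the 77 members on the log2(normalized count + 1) scale, as point and standard error from limma, in order of size within each subunit. Dark points had an unadjusted p of at most 0.05, the dashed line is the median of all 14099 genes (0.10), and 69 members lie below 0.

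The members with the smallest p in that direction had short transcripts and came from both subunits. Mrpl27, a protein next to the site of peptide bond formation (chr11:94653767-94660089, + strand, with the ETS core in front as printed above), had 1161, 1346, 1955, 1229 and 1685 in control libraries 9901, 9904, 9905, 9925 and 9926. In the libraries labelled Ftl1 OE its lowest value was 749.9, the median 869 and the highest 1232. Only library 9895 labelled Ftl1 OE, at 1232, reached the range of the controls. The log2 fold change was −0.68 ± 0.20 (SE) at an adjusted p of 0.499 by limma, and the exact permutation test of this gene alone gave p = 0.00379, two-sided. Exons of Mrpl27 share bases with Eme1 on the other strand.

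Mrpl33, a very small protein with a bacterial counterpart (chr5:31596935-31664384, + strand), had 547, 433, 1071, 582 and 522 in the same controls, against 286 to 417 for the label Ftl1 OE, with a median of 323. All controls were above all libraries labelled Ftl1 OE, and 9905 was far above the other controls. The difference was −0.85 ± 0.26 on the log2 scale (SE, adjusted p = 0.499 by limma; exact permutation p = 0.00126, two-sided), and −0.64 without 9905 and 9926. Its exons share bases with Gm43809 on the same strand.

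Mrps21, of the small subunit (chr3:95862634-95871519, − strand), had 789.6, 551, 1317, 803 and 1070.3 in controls, against 373 to 645 for the label Ftl1 OE, with a median of 522. Control library 9904 fell within the range labelled Ftl1 OE and the other controls were above it. The difference was −0.79 ± 0.25 on the log2 scale, and −0.49 without 9905 and 9926.

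Mrpl54, specific to mitochondria (chr10:81264713-81266934, − strand), had 636, 504, 1539, 709.7 and 1520.2 in controls, so that 9905 and 9926 were more than the other controls by a wide margin. In the libraries labelled Ftl1 OE it lay between 334 and 552, with a median of 512. The difference of −0.92 ± 0.30 on the log2 scale was −0.39 without 9905 and 9926. Mrpl34, a very small protein with a bacterial counterpart (chr8:71464959-71465747, + strand), showed the same 2 high controls, with 486, 542, 1156, 602 and 1069 against 337 to 535 and a median of 412. Its difference of −0.78 ± 0.27 was −0.36 without them. The adjusted p was 0.521 for Mrps21, 0.525 for Mrpl54 and 0.546 for Mrpl34 by limma. Mrps15, named only because its groups did not overlap and after its values were seen, had 559 to 728 in controls, against 375 to 527 for the label Ftl1 OE. Unlike the 5 genes above, its lowest control was 9905.

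Of the 8 members above 0, Mrpl3, a protein of the large-subunit core with a bacterial counterpart, had the smallest p. Its counts were 741, 676, 376, 831 and 399 in controls and 726 to 1228, with a median of 841, in the libraries labelled Ftl1 OE. Here 9905 and 9926 were the lowest controls. The log2 fold change was 0.62 ± 0.25 (SE, adjusted p = 0.610 by limma; exact permutation p = 0.0164, two-sided), and 0.04 among the libraries with at least 15000 genes detected. Mrps31, specific to mitochondria, had 238, 295, 79.8, 245 and 25.5 against 174 to 398, a difference of 1.00 ± 0.54 that was −0.05 among those libraries. Mrps2, with a bacterial counterpart, had 929.6, 795, 611, 588 and 266 against 653 to 1048, a difference of 0.49 ± 0.27 that was 0.21 without 9926 and 0.13 without 9905 and 9926. Mrpl35 differed by 0.28 ± 0.23 and Mrpl32, a protein cut by a protease of the inner membrane before it enters the ribosome, by 0.36 ± 0.35. Mrpl32 turned to −0.04 without 9905 and 9926 and to −0.17 among the libraries with at least 15000 genes detected. Mrpl35 was at 0.11 without 9904 and 0.03 among the latter libraries. The adjusted p of these members was 0.695 to 0.790 by limma. The other 3 members above 0, Mrpl45, Mrps22 and Mrpl50, differed by 0.12, 0.19 and 0.02 and are named to complete that count, after their values were seen.

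**Figure D3:**
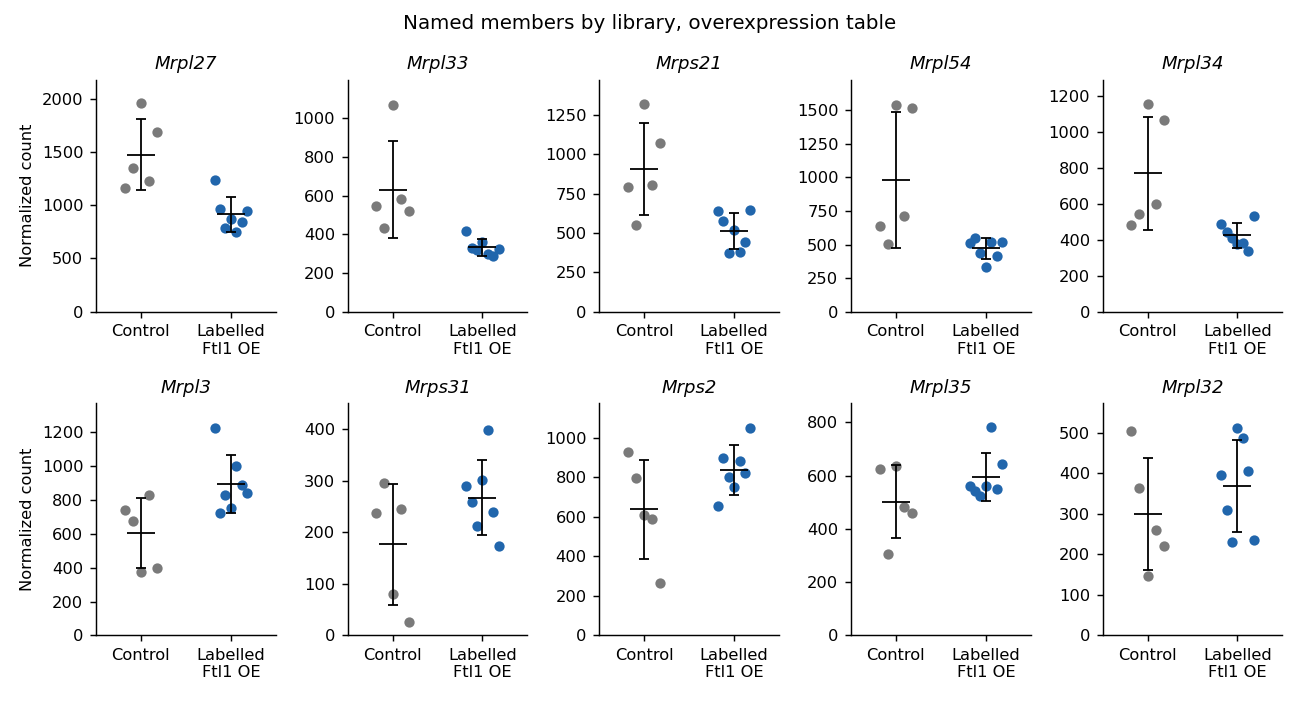
Normalized counts of the 10 members named for the overexpression table, each point a library, with mean and SD of the 5 control and 7 labelled Ftl1 OE libraries. Upper row, lower in the libraries labelled Ftl1 OE; lower row, above control. Mrpl33 alone of the 10 has groups that do not overlap (433 to 1071 against 286 to 417).

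By role, the median log2 fold change in the libraries labelled Ftl1 OE was −0.52 for the 16 small-subunit members with a bacterial counterpart, of which 15 were below 0 and 8 lower at an unadjusted p of at most 0.05, beside 3.66% of all genes. It was −0.37 for the 30 large-subunit members with a bacterial counterpart, with 27 below 0 and 7 lower at that level, and −0.37 for the 20 specific to mitochondria, with 18 and 8. The 11 small-subunit members specific to mitochondria had a median of −0.31, with 9 below 0 and 1 lower at that level. Without 9905 and 9926 the medians of these 4 classes, in the order given, were −0.22, −0.10, −0.21 and −0.06. The 3 members of the S18 family, which hold different places in the ribosome, are outside the rules by which members were named. Of these, Mrps18a averaged 2032 ± 983 in controls, against 1244 ± 284 for the label Ftl1 OE (SD, n = 5 and 7). Mrps18b averaged 1151 ± 513 and 764 ± 186, and Mrps18c 509 ± 74.7 and 413 ± 57.6, so all 3 had lower means in the same direction with fold changes of −0.60, −0.50 and −0.30 on the log2 scale. Their highest controls were 9905 for Mrps18a (3536) and Mrps18c (615) and 9926 for Mrps18b (1752).

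The members also differed along the length of their transcripts. Median transcript lengths (GENCODE M21) of the members ran from 440.5 to 6073 bases, with a median of 1223, beside 2721 for the genes tested. Of the 26 shortest members, up to 937 bases, all 26 were below 0 and 15 lower at an unadjusted p of at most 0.05 (3.66% of all genes), with a median of −0.58. Of the next 26, up to 1634.5 bases, 24 were below 0 with a median of −0.41. Of the 25 longest, from 1849 bases, 19 were below 0 with a median of −0.25. Spearman's rho between length and log2 fold change was 0.47 over the 77 members and 0.27 over the 13571 genes tested with a length. These genes share all 12 libraries and the rho has no p. Without 9905 and 9926 the rho was 0.31 for members and 0.07 for all genes, and among the libraries with at least 15000 genes detected 0.47 and 0.21. With age the direction was the other way, at −0.34 over the 77 members and −0.06 over 13186 genes, with medians of 0.17, 0.12 and −0.21 for the shortest, middle and longest members. The 2 tables share no library. Taken apart, 50 members were above 0 with age and 69 below 0 in the libraries labelled Ftl1 OE. These numbers in part set the counts that follow, and no relation between the tables was tested. Members above 0 with age and below 0 in the libraries labelled Ftl1 OE numbered 48, those below 0 in both 21, those below 0 with age and above 0 in the libraries labelled Ftl1 OE 6, and those above 0 in both 2.

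**Figure D4:**
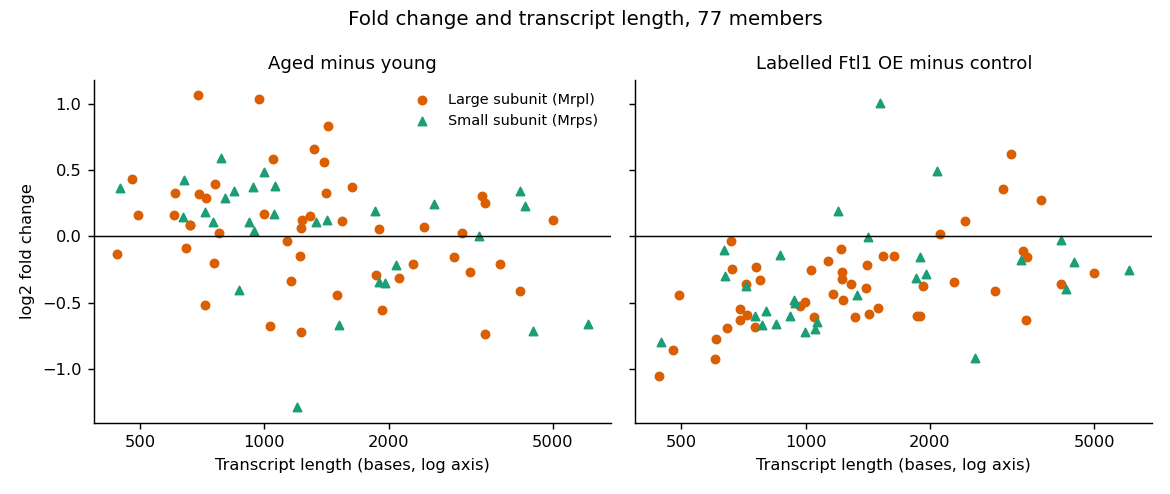
Log2 fold change of the 77 members against median transcript length in bases (log axis), for aged minus young (left) and labelled Ftl1 OE minus control (right). All 26 members up to 937 bases lie below 0 on the right, and 21 of these 26 lie above 0 on the left.

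The members with an ETS core in the promoter window (25) had a median log2 fold change of −0.52 in the libraries labelled Ftl1 OE, and the 43 without one −0.25. With and without the NRF1 core the medians were −0.35 and −0.38, and with and without the YY1 core −0.34 and −0.38. The range of members with an ETS core was −1.06 to 0.62, within −1.06 to 1.00 over all members, and no test was made of a list chosen with these data known.

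The other genes of mitochondrial translation were mixed in this table. Of the 6 ribosomal proteins under other names, 5 were below 0 with a median of −0.60, and 3 of these had an unadjusted p of at most 0.05. Chchd1, of the small subunit, averaged 652 ± 255 in controls, against 355 ± 44.0 for the label Ftl1 OE, with no overlap (−0.81 ± 0.26, SE, adjusted p = 0.516 by limma). By its own DESeq2 fit, the paper lists Chchd1 among the genes decreased with Ftl1 OE. Ict1, a large-subunit protein that also releases stalled chains and is now called Mrpl58, averaged 1005 ± 431 and 545 ± 187. Aurkaip1, of the small subunit, averaged 2046 ± 838 and 1276 ± 244. Translation factors (11 genes, median −0.11), transfer RNA synthetases (17 genes, 0.04) and assembly factors (21 genes, 0.00) had medians closer to that of all genes. Tsfm, an elongation factor, averaged 588 ± 194 and 355 ± 90.8, and Rbfa, which matures the small subunit, 1119 ± 508 and 675 ± 215. Iars2, the mitochondrial isoleucyl-tRNA synthetase, averaged 266 ± 82.6 and 429 ± 126. Mterf1a, a factor of mitochondrial transcription, averaged 43.2 ± 41.0 and 125 ± 42.4, with no overlap. All of these had adjusted p-values of 0.516 to 0.651 by limma.

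Beside the members, the proteins of the cytosolic ribosome and the nuclear-encoded subunits of oxidative phosphorylation, which mitochondrial ribosomes complement, were read in the same fit. Of 78 cytosolic ribosomal protein genes 75 were below 0, with a median of −0.71 and 62 lower at an unadjusted p of at most 0.05, beside 3.66% of all genes. Of 82 oxidative phosphorylation genes 77 were below 0, with a median of −0.64 and 56 lower at that level. Without 9905 and 9926 the medians of these 2 lists were −0.37 and −0.33, beside −0.18 for the members. With age the medians were 0.60 for 79 cytosolic ribosomal protein genes and 0.26 for 79 oxidative phosphorylation genes, beside 0.11 for the members. No test was made of the differences between lists.

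In the knockdown table the members were near the limit of detection. The summed reads of all 77 members were 160 to 800 in a library, the median read count of a member in a library was 3, and 13.5% of the 616 pairs of member and library had no read. A read in every library was found for 28 members. The summed normalized count was 329, 323, 313 and 283 in KD control libraries 1, 2, 3 and 5 and 344, 292, 291 and 295 in libraries 1, 3, 4 and 5 of the label Ftl1 KD. The groups overlapped, and the means of the groups were 312 and 306. Of the 77 members, 41 had a higher and 36 a lower mean in the libraries labelled Ftl1 KD.

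Only 4 members reached a mean of 10. Mrps26, at 10.7, was just inside this limit and Mrpl12, at 8.57, just outside it. All 4 reached 10 in the controls and 1 of them, Mrpl4, in the libraries labelled Ftl1 KD, so that the limit itself admitted members that were high in controls and their shared direction is no support for a difference. Of these 4, 1 passed the threshold, beside 24.2% of the 1460 genes tested. At an unadjusted p of at most 0.05, 2 were lower, beside 20.7% of all genes, and 0 higher, beside 17.5%. The groups did not overlap for 1, which was lower, beside 11.9% of all genes in that direction and 11.8% in the other.

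Mrpl41 was the member that passed the threshold, with lower counts in the libraries labelled Ftl1 KD. Its normalized counts were 28.3, 17.3, 18.7 and 18.4 in controls, against 9.59, 2.71, 16.4 and 4.41 for the label Ftl1 KD, from 3 to 44 reads. All controls were above all libraries labelled Ftl1 KD, by a small margin for library 4. The mean was 0.400 of that in controls, with a log2 fold change of −1.45 ± 0.43 (SE) and an adjusted p of 0.0154 by limma. It reached a mean of 10 in the controls alone, and with every gene of the table tested, without that limit, its adjusted p was 0.0221 by limma. The exact permutation test gave p = 0.0286, two-sided, the smallest that 4 against 4 libraries can give. Without control library 1 the adjusted p was 0.0635, and without Ftl1 KD library 3 it was 0.0681, while over the other alternatives it went down to 0.00587. The groups of Mrpl41 overlapped in the age and overexpression tables, whose group sizes differ from those of knockdown. Lower groups without overlap were found for 11.9% of all genes tested for knockdown, 12.5% for age and 0.411% for overexpression. Overlap is therefore not comparable between the tables.

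Mrps26, a small-subunit protein specific to mitochondria, had 11.3, 17.7, 11.2 and 15.9 in controls, against 10.5, 3.61, 1.82 and 13.2 for the label Ftl1 KD, a log2 difference of −1.12 ± 0.53 (SE, adjusted p = 0.120 by limma). Mrpl28 had 17, 22.2, 9.36 and 10 against 9.59, 6.31, 9.11 and 5.88, a difference of −0.79 ± 0.43 (adjusted p = 0.177 by limma). Mrpl4, at the wall of the tunnel through which the new chain leaves, had 16, 8.07, 16.9 and 15.9 against 13.4, 12.6, 5.47 and 14.7, a difference of −0.31 ± 0.39 (adjusted p = 0.605 by limma). The groups of these 3 overlapped. Without the limit on low values, all 77 members entered, 35 were below 0, and the median was 0.11. Exons of Mrps26 share bases with 4930473A02Rik on the other strand.

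**Figure D5:**
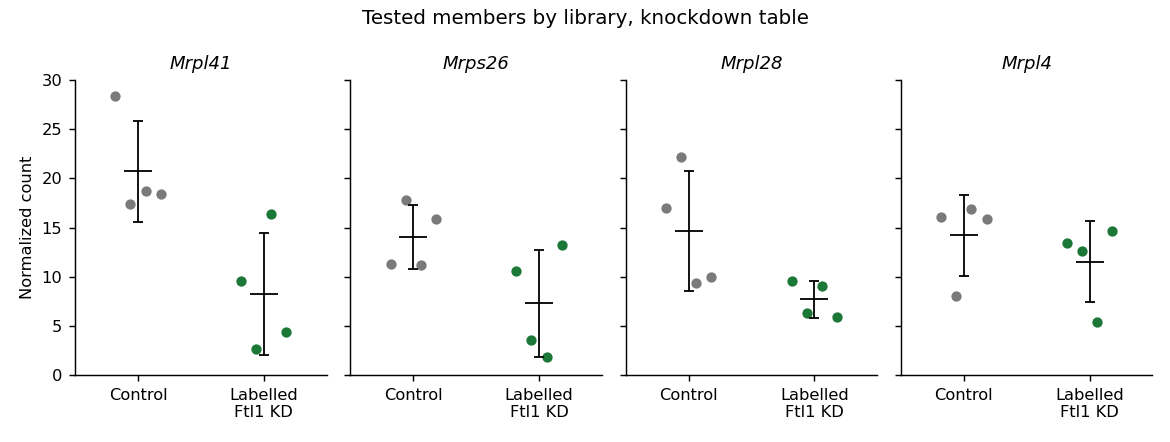
Normalized counts of the 4 members with a mean of at least 10 in the knockdown table, each point a library, with mean and SD of the 4 control and 4 labelled Ftl1 KD libraries. Mrpl41 lies at 17.3 to 28.3 in controls and at 2.71 to 16.4 in the libraries labelled Ftl1 KD, and the groups of the other 3 overlap.

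Of other genes of mitochondrial translation, 2 were tested here. Dhx30, a helicase needed for assembly of the mitochondrial ribosome, averaged 20.6 ± 9.78 in controls, against 6.52 ± 3.75 for the label Ftl1 KD (SD, n = 4 each), with a log2 fold change of −1.56 ± 0.46 (SE, adjusted p = 0.0148 by limma). It too reached 10 in the controls alone, and its adjusted p was 0.0153 without that limit and 0.0633 without control library 3. Lars2 averaged 453 ± 229 and 284 ± 46.8, a difference of −0.50 ± 0.28 (SE, adjusted p = 0.187 by limma). In the same fit 40 of 44 cytosolic ribosomal protein genes were above 0 with a median of 0.46, and 42 of 46 oxidative phosphorylation genes with a median of 0.44. The nuclear-retained RNAs stood apart as well, at summed counts of 611 to 1222 in controls, against 211 to 314 for the label Ftl1 KD. So did the 6 oligodendrocyte markers, at 36.8 to 93.6 against 10.9 to 21.6, and, in the other direction, the 6 astrocyte markers, at 14.98 to 36.8 against 37.0 to 55.8. Microglia markers, at 1.89 to 13.1 and 0 to 6.71, overlapped, and endothelial markers had no read in the controls. The part of these differences in the values of Mrpl41 and Dhx30 was not tested. Rn45s took 31.9% to 55.3% of the reads of the controls and 30.3% to 34.5% of those labelled Ftl1 KD. Its part in the Lars2 counts was not tested here either.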

How the data were processed

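RNA of sorted hippocampal neuronal nuclei was measured in 25 libraries and deposited as 3 tables. Per the labels and the study's methods, the authors aligned reads with STAR to mm10, estimated counts per gene with RSEM and divided them by DESeq2 size factors. The deposited values are thus a normalized signal per gene, and the annotation release is not given in the sources used here. The sample records name a strand-specific poly(A) kit and the methods a modified Smart-seq2 protocol. The tables also hold the authors' own fold changes and p-values, which were not used.

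Every value was a whole multiple of a per-library step (100% of values, relative tolerance 1e-06), which gave back whole reads. Groups came from the sample records, and ages of injected mice from the methods. limma 3.58.1 in R 4.3.3 was fitted within each table on log2(normalized count + 1) for genes with a mean of at least 10, with a trend and Benjamini-Hochberg adjustment. edgeR 4.0.16 and DESeq2 1.42.0 were run on the recovered reads as alternatives, beside other pseudocounts (0.5 and 10), filters, scalings and omitted libraries. Single genes were also tested by exact permutation. The fit was tested on simulated data. Levels per kilobase used median lengths of protein-coding transcripts.

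The members, gene lists and roles were chosen with earlier results of these data known. Members were named when they passed the threshold, when they were among the 5 smallest p-values in either direction, when they had the 4 highest levels per kilobase in young libraries, or when they were tested for knockdown. Other genes of mitochondrial translation were named at an unadjusted p of at most 0.05, or as the 3 with the smallest p. In the annotation 5 pseudogenes are named for members and 0 of them have a row in the tables, and 21 members share exon bases with a gene on the other strand and 5 with a gene on the same strand.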

Additional observations from a re-analysis of the deposited data

Results flagged for a closer look

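In groups of 4 to 10 libraries, a library was picked out when its gap to the nearest other library exceeded the 95% limit of Dixon's ratio, which chance passes in about 1 in 20 groups. Of 32 groups examined, 4 held such a library. Mrpl33 stood at 1071 in OE control library 9905, where the other controls lay at 433 to 582. Mrpl41 stood at 28.3 in KD control library 1, against 17.3 to 18.7 in the other controls. Mrpl4 stood at 8.07 in KD control library 2, against 15.9 to 16.9. The summed count of the members stood at 344 in Ftl1 KD library 1, against 291 to 295 in the other libraries of that label.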

How the results depend on the processing

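Medians and counts of the 77 members kept their direction for overexpression under all 22 alternatives. The median lay between −0.48 and −0.27 when 1 library was left out and was −0.18 without controls 9905 and 9926, a choice made after seeing the data, as was the limit of 15000 genes. The count lower at an unadjusted p of at most 0.05 was 24, and 11 to 39 when 1 library was left out, 4 without 9905 and 9926 and 8 among libraries with at least 15000 genes. DESeq2 passed 3 members where limma passed 0. Mrpl32 turned to −0.043 and −0.17 and Mrps31 to −0.052 in these subsets. With age the median was −0.054 to 0.18 when 1 library was left out. For knockdown, 0 to 1 members passed when 1 library was left out, and the median of the 4 tested, −0.95, was −1.13 to −0.78. It was −0.49 with a pseudocount of 10 and, over 77 members with no filter, 0.11. A mean of at least 100 left no member for knockdown. Libraries with the same number in both groups did not deviate together (correlations of −0.05 and 0.02 for age, −0.03, −0.02 and −0.05 for knockdown). A fit with the replicate number as a block gave medians of 0.05 for age and −0.62 for knockdown, with 0 and 1 members past the threshold, and changed no call of a member, while Dhx30 had an adjusted p of 0.0752 under it by limma. Depth limits the knockdown table, where 73 members had a mean under 10.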
